A study of Mus musculus with 18 samples.

Results

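The genes described here are 10 genes tied to the let-7 microRNA pathway, namely Lin28a, Lin28b, Hmga2, Igf2bp1, Igf2bp2, Igf2bp3, Arid3a, Arid3b, Igdcc3 and Trim71, followed day by day in cells of the embryonic mouse heart. The probes were taken by gene symbol, and 9 of the 10 genes had at least 1 named probe on the array (25 probes of 45281, and 9 genes of 19057), while Igf2bp2 had none and does not enter the results. The arrays came from 6 embryonic stages, E11.5, E12.5, E13.5, E14.5, E15.5 and E16.5, with 3 arrays each (18 in all). Every sample held cells that carried a green fluorescent protein knock-in at Wt1 (the Wt1GFPKI mice of the labels), were freed from heart ventricles with enzymes, and were sorted by flow cytometry for the GFP signal. Wt1 is itself a gene of the epicardium, and the GFP signal marks cells in which that locus is or recently was active. The series title, however, calls the sorted cells cardiomyocytes. No array labelled as unsorted or GFP-negative enters this report. All groups share the knock-in, and only the embryonic day differs between their labels. The labels do not say whether the 3 arrays of a stage came from separate litters, so the p-values below measure only the spread between these arrays.

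The gene list was chosen from a contrast in these same arrays: the values at E16.5 and at E11.5 were known when the members were picked, and Igdcc3 and Arid3b were among the probes with the largest falls. Differences between E16.5 and E11.5 are therefore given below for the members as a description, without a test. What was tested is the course over the 12 arrays of E12.5 to E15.5, which that contrast does not use. Earlier results of these data were known when members and tests were chosen, so these tests are no independent support. The curvature over all 6 stages uses the end stages and is described without a test.

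LIN28A and LIN28B are RNA-binding proteins that bind the precursors of let-7 microRNAs and block their maturation, and mature let-7 in turn represses the mRNAs of LIN28A and LIN28B. HMGA2, IGF2BP1, IGF2BP2, IGF2BP3, ARID3A, ARID3B, IGDCC3 and TRIM71 are encoded by mRNAs known as let-7 targets, and most of them are abundant in early embryos and in stem cells and scarce in adult tissue. The whole circuit was first worked out as a developmental timer in the worm Caenorhabditis elegans, where lin-28, let-7 and lin-41, the worm relative of Trim71, set the order of larval cell fates.

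The sequences that tie these genes together are those of let-7 itself, printed here because the arrays measured mRNAs and no microRNA. The 11 mouse let-7 family members in the RefSeq table (build GRCm38.p6) included 10 with the same seed, bases 2 to 8, which is the stretch that pairs with target mRNAs. The seed is in capitals below, 5′ to 3′.
mmu-let-7a-5p: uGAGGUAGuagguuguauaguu
mmu-let-7d-5p: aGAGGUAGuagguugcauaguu
mmu-let-7g-5p: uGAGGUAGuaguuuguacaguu
mmu-miR-98-5p: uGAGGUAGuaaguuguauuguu
mmu-let-7j: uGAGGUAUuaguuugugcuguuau
Outside the family only 1 of the 1679 mature microRNAs of the table, mmu-miR-1961, carried the seed GAGGUAG. let-7j was the family member with another seed, GAGGUAU. The LIN28 proteins recognise the precursor rather than the mature strand, in part through a GGAG motif in its terminal loop. Of 12 let-7 and miR-98 hairpins in the table, 9 held GGAG after the mature 5′ arm, and Mirlet7b, Mirlet7c-2 and Mir98 held none. GGAG stood anywhere in 447 of all 1005 hairpins, or 44.5%. The hairpins of Mirlet7g, with the motif in capitals, and of Mirlet7b, without it, show the 2 kinds.
Mirlet7g hairpin (chr9:106178840-106178927, plus strand): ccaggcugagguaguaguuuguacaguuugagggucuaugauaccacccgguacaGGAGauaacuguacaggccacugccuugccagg
Mirlet7b hairpin (chr15:85707319-85707403, plus strand): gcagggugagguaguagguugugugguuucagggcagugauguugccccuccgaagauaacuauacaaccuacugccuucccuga

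Values are the authors' deposited intensities of Illumina probes, whose distribution is the same on every array, as after quantile normalization, and brightness rises with the amount of mRNA. A probe was taken as above background where its intensity passed 105.41, the most frequent intensity (98.99) plus 1.64 times the SD of the values below it. A probe was kept if 3 or more of the 18 arrays passed the limit, which left 16 of the 25 probes, of 8 genes, and 25357 of all 45281 probes. Differences are given on the log2 scale after background correction. Brightness depends on the probe, so no probe's level is set against another's. These are bulk samples, in which fewer cells of a type and less mRNA per cell cannot be told apart.

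The labelled cell type was checked against marker genes. Of the cardiomyocyte markers, 15 of 15 with a named probe were above background on every array of every stage, and their mean log2 level was 11.66 ± 0.06 at E16.5 and 11.75 ± 0.03 at E11.5 (SD, n = 3 arrays each). Single genes of the list moved: 2 of 15 were lower and 4 higher at E16.5 than at E11.5, where 10.4% of all kept probes were lower and 8.94% higher. The lower ones were Myl7 (5.57-fold, adjusted p = 1.75e-10, limma) and Nppa (3.91-fold, adjusted p = 4.25e-06, limma). Tnni3 had the largest rise (2.07-fold, adjusted p = 5.28e-05, limma). Wt1 and Tnnt2 could not be read, having no named probe, so the sort gate could not be checked directly. Of 12 named fibroblast and mesenchyme markers, 11 were above background on all 3 arrays at E16.5, with summed intensities of 6250 to 8879, against 7 at E11.5, with sums of 1596 to 1923. Postn was above background on no array, and the fibroblast list's mean was 2.27 higher at E16.5 on the log2 scale. Of 8 named megakaryocyte and platelet markers, 0 were above background on all 3 arrays at E16.5 (sums 805 to 839), against 7 at E11.5 (sums 1547 to 2090). Most of that difference lay between E12.5, with sums of 849 to 885, and E11.5. The erythroid list's mean was 1.46 higher and the endothelial list's 0.77 higher. Of the epicardium and mesothelium list, 4 of 13 named genes were above background on all 3 arrays at E16.5 (sums 1610 to 1750), against 7 at E11.5 (sums 1646 to 1786), and its mean was -0.28 at E16.5 relative to E11.5 on the log2 scale. Of its 10 kept genes, 6 were lower, among them Tbx18 (1.49-fold lower), and 2 were higher, among them Tcf21 (4.42-fold higher). Among markers of other lists, Dcn, a fibroblast proteoglycan gene, was 23.2-fold higher and Pecam1 2.15-fold higher at the later stage (adjusted p from 4.51e-12 to 0.00669 for these 4 genes, limma). Of the 10 kept erythroid genes, 4 were lower and 5 higher. The embryonic globin gene Hbb-bh1 was at least 1.27-fold lower without background correction (1.87-fold with it), whereas the adult globin gene Hbb-bs, named after its value was seen, was 82.3-fold higher (adjusted p = 1.03e-06 and 1.13e-11, limma). The part of these other cells in the results below was not tested.

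Replicate arrays of a stage correlated at r = 0.980 to 0.994 over the kept probes. Nevertheless 7 of the 18 arrays correlated best with an array of another stage: E12.5 replicate 1, E13.5 replicate 1, E15.5 replicates 1 and 2, and all 3 arrays of E16.5. In 7 of these 7 the best match carried the same replicate number, and what that number stands for is not given in the labels. Within E13.5, replicates 2 and 3 correlated best with each other and replicate 1 with another stage. The day-by-day counts of called member probes that use E13.5 are given with and without replicates 2 and 3. Shares of a difference reached by E13.5 rest on all 3 arrays.

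Lin28a and Lin28b, the upstream proteins of the pathway, were at or near background at every stage. Only 18 of 72 values over the 4 Lin28a probes passed the limit, and the intensities ran between 92 and 118. For Lin28b, 10 of 54 values over 3 probes passed, with intensities of 92 to 116. Hmga2, which encodes a DNA-bending chromatin protein, passed on 0 of 54 values over 3 probes, with intensities of 91 to 105.

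The Lin28a probe ILMN_1220027 read 102, 102 and 104 at E11.5, 104, 105 and 117 at E12.5, 106, 108 and 103 at E13.5, 106, 103 and 118 at E14.5, 105, 101 and 110 at E15.5, and 105, 102 and 109 at E16.5. No stage stood apart on it, since each stage overlapped its neighbour in the order of the means. A further kept Lin28a probe, ILMN_2521653, likewise had overlapping neighbours throughout, and passed the limit on all 3 arrays only at E12.5 (114, 107 and 109). The kept Lin28b probe, ILMN_2513525, read 101, 106 and 109 at E16.5, against 107, 105 and 116 at E11.5, and these overlapped. The log2 difference between E15.5 and E12.5 was -0.14 ± 0.16 and -0.22 ± 0.13 for the kept Lin28a probes and -0.01 ± 0.18 for Lin28b (SE; adjusted p = 0.73, 0.347 and 0.982, limma). Among the probes not kept, Lin28a ILMN_2525870 read 95, 92 and 95 at E16.5, against 104, 101 and 100 at E11.5. Hmga2 ILMN_2743802 read 95, 100 and 98 at E16.5, against 102, 105 and 104 at E11.5. Both stayed under the limit on every array, and the other probes of these genes overlapped between the end stages. Values this close to the limit carry little information on a change in either direction, and no change in these 3 genes is read from them.

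**Figure D1:**
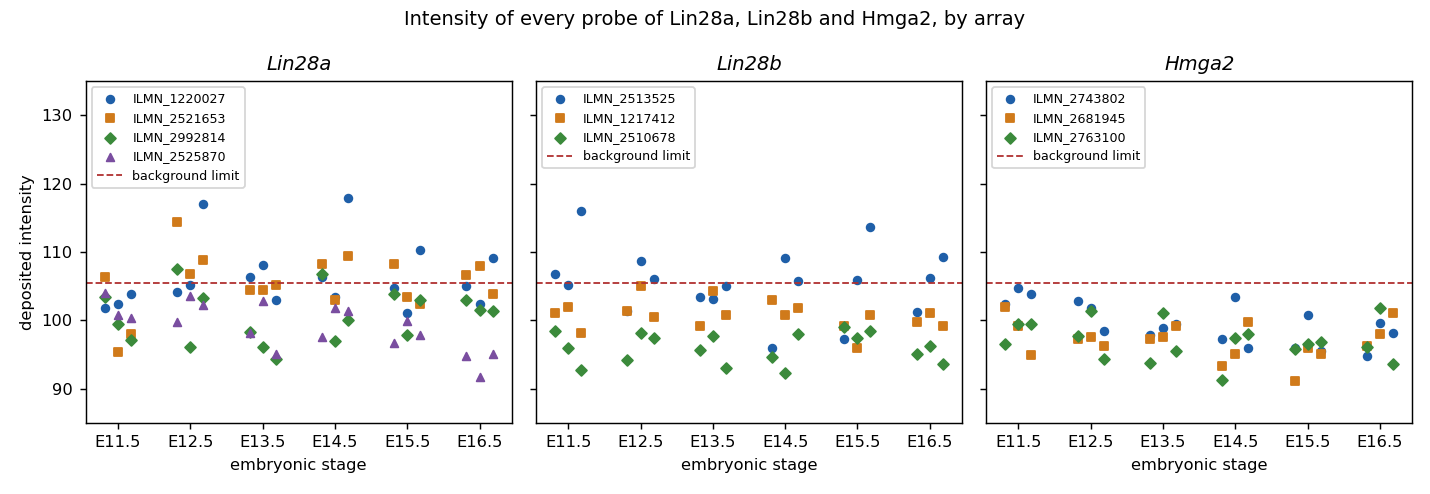
Deposited intensity (linear axis) of every probe of Lin28a, Lin28b and Hmga2 on each of the 18 arrays, by embryonic stage, with the background limit of 105.41 as a dashed line. Most points lie under the line at every stage, Hmga2 never passes it, and the highest Lin28a value is 118.

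Trim71, a ubiquitin ligase and RNA-binding protein of early embryos, was measurable only on the first days. Its probe ILMN_2502290 read 173, 185 and 167 at E11.5, 114, 113 and 116 at E12.5, 99, 93 and 97 at E13.5, 98, 95 and 92 at E14.5, 93, 98 and 91 at E15.5, and 92, 93 and 92 at E16.5. All 3 arrays of E11.5 lay above all 3 of E12.5, which in turn lay above every later array. From E13.5 on the probe was not well above background, and the later stages overlapped. With the dim stage counted at the lowest signal taken as above background, Trim71 was at least 1.66-fold lower at E16.5 than at E11.5 on uncorrected intensities, and the same bound came to 3.14-fold after background correction. Between the middle stages it was lower at E15.5 than at E12.5 (adjusted p = 0.00013, limma), by at least 1.08-fold uncorrected and 1.27-fold corrected, with measured log2 means of 4.37 ± 0.23 at E15.5 and 5.37 ± 0.06 at E12.5 (SD, n = 3). The probe passed the filter only through the 6 arrays of E11.5 and E12.5, where it was high. The p-value against E12.5 is therefore no independent support. A further Trim71 probe, ILMN_1240927, stayed between 96 and 106 on all arrays and was not kept.

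Igdcc3, which encodes a cell surface protein with immunoglobulin and fibronectin domains, came down to the background limit by E15.5. Its intensities were 306, 319 and 302 at E11.5, 194, 180 and 205 at E12.5, 126, 122 and 138 at E13.5, 123, 118 and 123 at E14.5, 101, 104 and 105 at E15.5, and 109, 116 and 99 at E16.5. The arrays of E11.5, of E12.5 and of E13.5 with E14.5 formed separate levels, and E15.5 and E16.5 overlapped near the limit. The log2 level was -2.77 ± 0.15 at E16.5 relative to E11.5 (SE), and 35.3% of that difference was reached by E12.5 and 75.5% by E13.5. On the arrays of E12.5 to E15.5, which the end-stage contrast does not use, Igdcc3 was lower at E15.5 than at E12.5 (adjusted p = 6.66e-09, limma). No array of E15.5 was above background. The bound was at least 1.83-fold on uncorrected intensities and 3.70-fold after background correction. The size of the end-stage difference depends on the background correction, being -1.52 on the log2 scale without one.

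Arid3b and Arid3a encode related transcription factors that share an AT-rich interaction domain. Arid3b read 306, 317 and 369 at E11.5, 214, 221 and 227 at E12.5, 146, 144 and 177 at E13.5, 142, 145 and 156 at E14.5, 121, 128 and 114 at E15.5, and 117, 116 and 117 at E16.5. The arrays separated at E11.5, E12.5, E13.5 with E14.5, and E15.5 with E16.5, and did not overlap between these 4 levels. Arid3a read 285, 369 and 378 at E11.5, 228, 275 and 240 at E12.5, 178, 186 and 210 at E13.5, 163, 156 and 173 at E14.5, 124, 132 and 132 at E15.5, and 139, 138 and 133 at E16.5. No neighbouring stages of Arid3a overlapped, and its lowest stage was E15.5, not E16.5. At E16.5 relative to E11.5 the log2 differences were -2.55 ± 0.14 for Arid3b and -2.07 ± 0.15 for Arid3a (SE), and -1.50 and -1.32 without background correction. Both fell between the middle stages: Arid3b was 3.08-fold lower at E15.5 than at E12.5 (log2 difference -1.62 ± 0.15, adjusted p = 4.29e-07), and Arid3a 3.09-fold lower (-1.63 ± 0.14, adjusted p = 1.88e-07; limma). Without background correction these log2 differences were -0.87 for Arid3b and -0.93 for Arid3a. Both stayed above background on all 18 arrays.

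**Figure D2:**
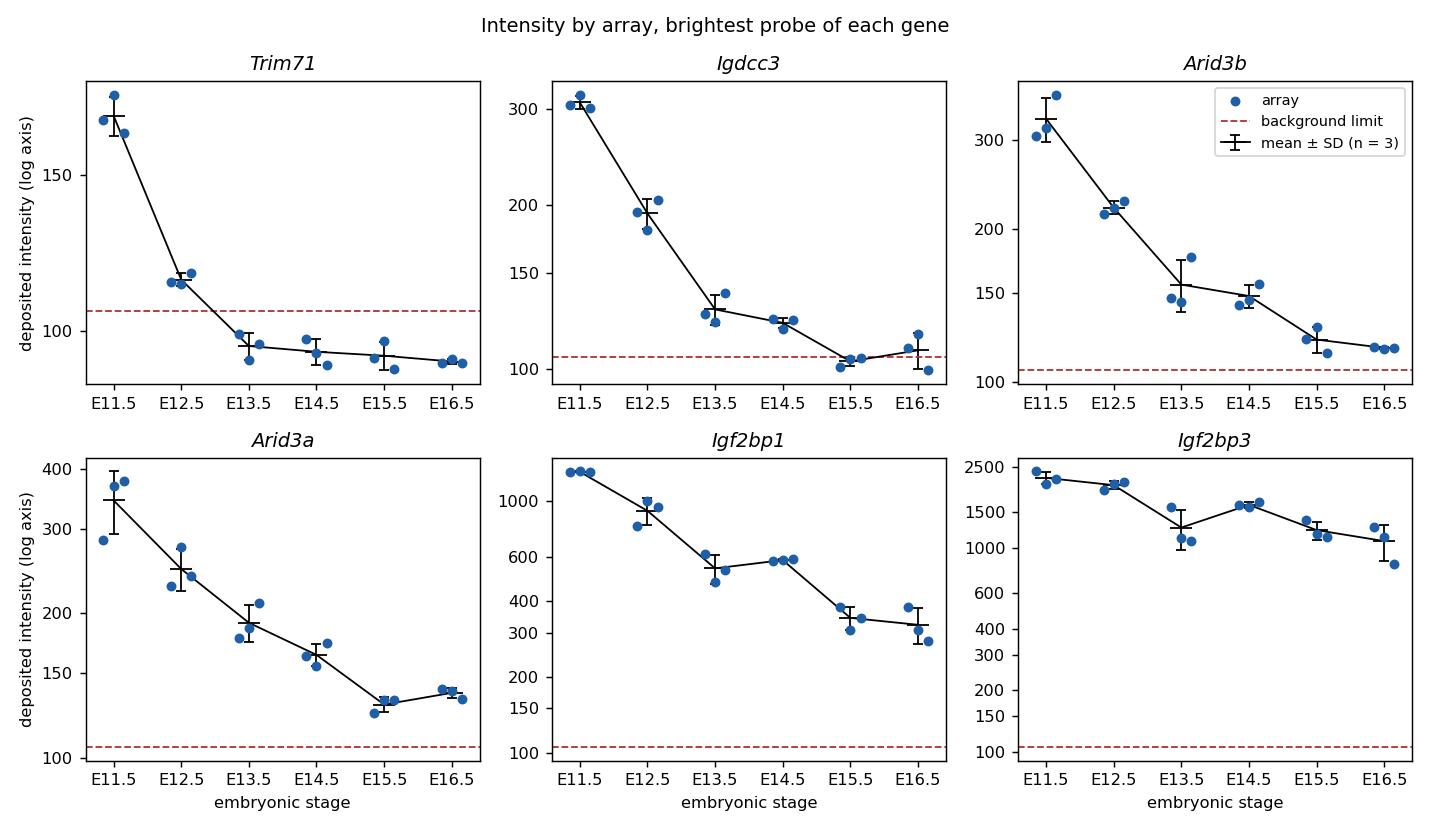
Deposited intensity (log axis) by embryonic stage for the brightest probe of Trim71, Igdcc3, Arid3b, Arid3a, Igf2bp1 and Igf2bp3, with each array as a point, the mean ± SD of 3 arrays in black, and the background limit of 105.41 as a dashed line. Trim71 is under the line from E13.5, Igdcc3 reaches it at E15.5, and the other 4 genes stay above it throughout, with Igf2bp3 at 1080 to 1587 on E13.5.

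Igf2bp1 and Igf2bp3 encode RNA-binding proteins that bind the mRNAs of Igf2, Actb, Myc and Cd44 and affect where and how long these are translated. The brightest Igf2bp1 probe, ILMN_3006804, read 1303, 1312 and 1307 at E11.5, 793, 1004 and 949 at E12.5, 615, 476 and 531 at E13.5, 576, 582 and 590 at E14.5, 380, 307 and 343 at E15.5, and 380, 309 and 279 at E16.5. The values formed 4 levels without overlap: E11.5, E12.5, E13.5 with E14.5, and E15.5 with E16.5. The 4 kept Igf2bp1 probes had log2 differences of -1.89 to -2.41 at E16.5 relative to E11.5. All 4 also fell at E15.5 relative to E12.5, by 2.73-fold to 3.15-fold (log2 differences -1.45 to -1.66, adjusted p from 1.05e-07 to 2.83e-07, limma). They differed in the first day, where the log2 difference between E12.5 and E11.5 was -0.09 ± 0.15 for ILMN_1221585 and -0.76 ± 0.15 for ILMN_2595621 (SE). The remaining probe, ILMN_2551187, lay between 100 and 106 on all arrays and was not kept.

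Igf2bp3 was followed by 5 kept probes, all above background on all 18 arrays, and they did not move alike. The brightest, ILMN_1218913, read 2383, 2072 and 2194 at E11.5, 1935, 2072 and 2116 at E12.5, 1587, 1122 and 1080 at E13.5, 1625, 1587 and 1687 at E14.5, 1370, 1170 and 1141 at E15.5, and 1275, 1138 and 839 at E16.5. E11.5 overlapped E12.5, and the lowest 2 values of E13.5 were those of replicates 2 and 3. Relative to E11.5, the log2 level at E16.5 was -1.11 ± 0.16 on this probe, -0.91 ± 0.13 on ILMN_1226175, -0.85 ± 0.14 on ILMN_1245610, -0.19 ± 0.13 on ILMN_1259757 and -0.00 ± 0.13 on ILMN_2590366 (SE). Between E15.5 and E12.5 the probe ILMN_1218913 was 1.71-fold lower (log2 difference -0.77 ± 0.14, adjusted p = 0.00136, limma) and ILMN_1226175 was 1.39-fold lower (-0.47 ± 0.13, adjusted p = 0.0273). That call on ILMN_1226175 was lost in 4 of 20 alternatives, with adjusted p = 0.184 without E15.5 replicate 2. The other 3 probes were not called, with log2 differences of -0.40, -0.12 and -0.02 (adjusted p = 0.06, 0.687 and 0.97). For ILMN_1245610 the change lay early, with 219, 207 and 229 at E11.5 and 138 to 186 on every later array, so that 83.1% of its end-stage difference was reached by E12.5. In the platform annotation ILMN_1218913, ILMN_1226175 and ILMN_2590366 were assigned to the same RefSeq transcript, and ILMN_1245610 and ILMN_1259757 to other sequence records. Over the 18 arrays ILMN_2590366 read only 112 to 138, and ILMN_1259757 only 112 to 130. Both lay close to the background limit. For ILMN_2590366 the log2 level at E12.5 was 0.37 ± 0.13 relative to E11.5 (SE). It was lower at E13.5 than at E12.5 (log2 difference -0.52 ± 0.13, adjusted p = 0.0455, limma), a call lost in 12 of 21 alternatives. The cause of the disagreement between the probes was not tested.

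**Figure D3:**
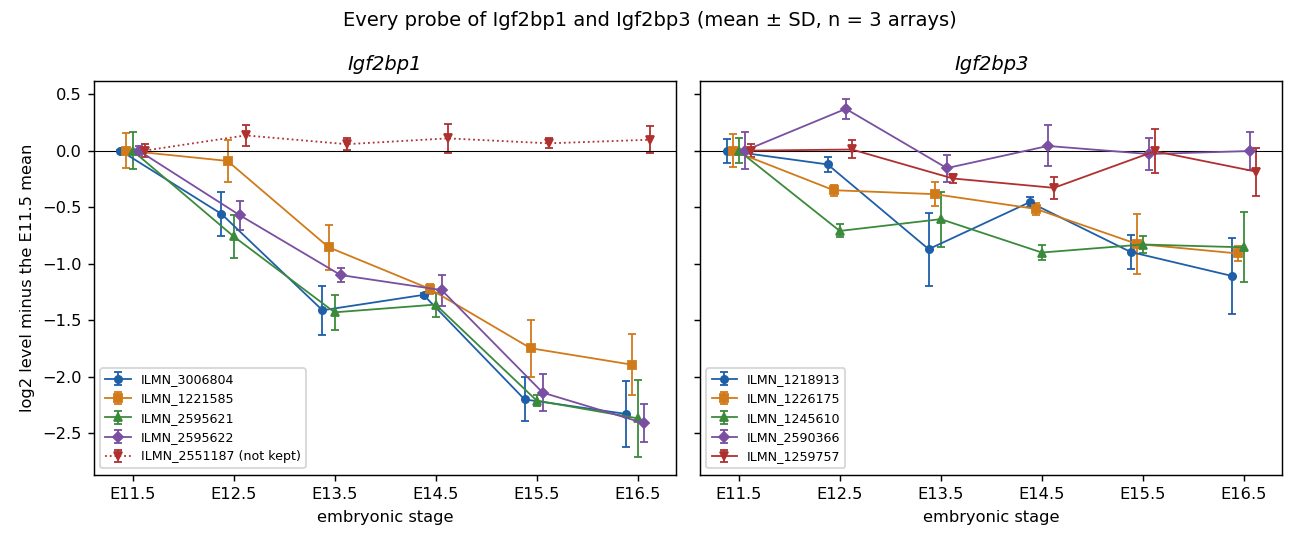
Mean log2 level of every Igf2bp1 probe (left) and Igf2bp3 probe (right) at each embryonic stage, relative to the probe's own mean at E11.5, with bars for the SD of 3 arrays; the dotted line is the probe that was not kept. The 4 kept Igf2bp1 probes end between -1.89 and -2.41, whereas the 5 Igf2bp3 probes end between -1.11 and -0.00. Of the latter, ILMN_2590366 and ILMN_1259757 lie close to the background limit at every stage.

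Across the members, 11 of the 16 kept probes, of 6 genes, were lower and 0 were higher at E16.5 relative to E11.5 by the same call rule as the other comparisons, where 10.4% of all kept probes were lower and 8.94% higher; nothing is read from this count, since the members were chosen on it. The comparison of E15.5 with E12.5 used arrays outside that contrast. There 10 of 16 kept probes, of the same 6 genes Igf2bp1, Igf2bp3, Arid3a, Arid3b, Igdcc3 and Trim71, were lower and 0 were higher (limma, adjusted p under 0.05). Over all 25357 kept probes 4.13% were lower and 4.8% higher. Trim71 is in the member count although its probe passed the filter only through E11.5 and E12.5. The median log2 difference over all kept probes was -0.01. Marker genes moved over the same days, with list means at E15.5 relative to E12.5 of 1.42 for fibroblasts, 0.59 for erythroid cells, 0.46 for smooth muscle, 0.44 for endothelium, 0.17 for neural crest, -0.14 for epicardium, -0.17 for cardiomyocytes, -0.21 for megakaryocytes and -0.32 for macrophages on the log2 scale, and their part in the result was not tested. Fits that left out each array in turn gave 9 to 11 lower member probes.

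**Figure D4:**
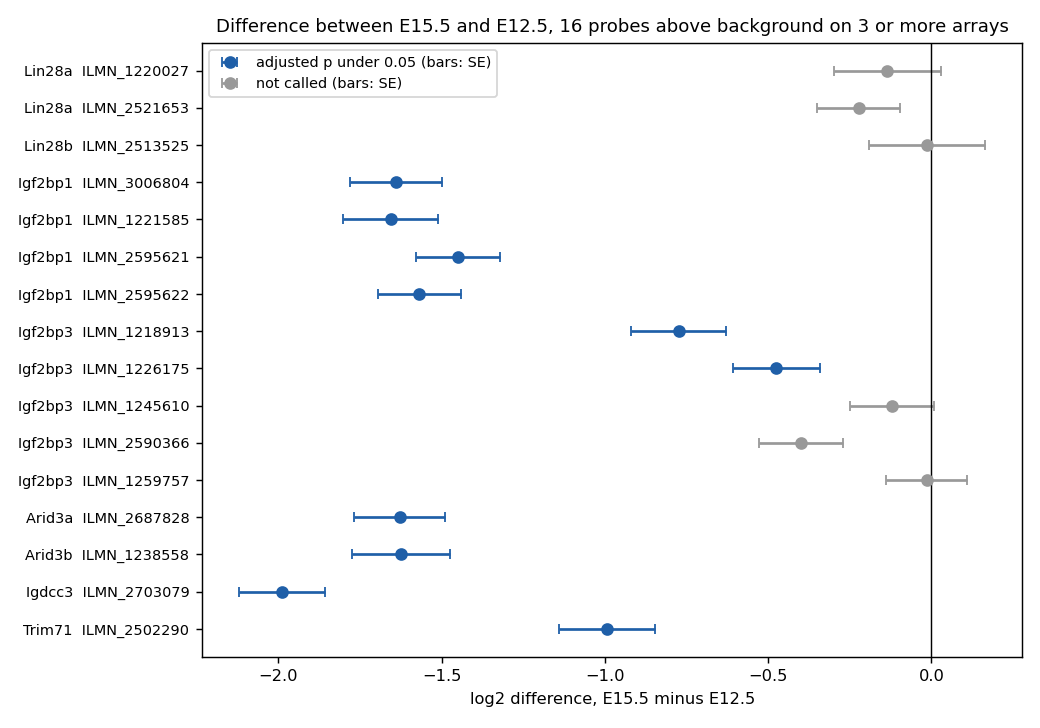
Log2 difference after background correction between E15.5 and E12.5 (horizontal axis) for the 16 kept member probes, with bars for the SE, in blue where the adjusted p was under 0.05 (limma, 12 arrays) and in grey where not. The 10 called probes all lie left of 0, from Igdcc3 at -1.99 to the Igf2bp3 probe ILMN_1226175 at -0.47, and the 3 Lin28 probes lie between -0.22 and -0.01.

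Day by day, member probes were called lower at E13.5 and at E15.5, and none were called at E14.5. At E13.5 relative to E12.5, 10 of 16 member probes were lower and 0 higher, where 0.868% of all kept probes were lower and 0.737% higher. Among them were Igdcc3 (2.17-fold lower, adjusted p = 0.000194), Arid3b (1.82-fold lower, adjusted p = 0.0061) and the Igf2bp1 probe ILMN_3006804 (log2 difference -0.85, adjusted p = 0.00443; limma). Trim71 was also counted, on a probe that passed the filter only through E11.5 and E12.5. This count leans on single arrays: it was 4 without E13.5 replicate 2, 5 without E13.5 replicate 3, 6 without E12.5 replicate 2, and 2 without both E13.5 replicates 2 and 3, when Igdcc3 (adjusted p = 0.00609) and Arid3b remained. The shares over all kept probes are not given for these fits with arrays left out. At E14.5 relative to E13.5, 0 probes were lower and 0 higher, where 1.29% of all kept probes were lower and 1.24% higher. Both counts were also 0 without E13.5 replicates 2 and 3. At an unadjusted p under 0.05, 3 member probes were lower and 1 was higher. Without E13.5 replicate 1, 1 member probe was called lower and 1 higher. The shares over all kept probes are not given for either variant, so nothing is read from these counts. At E15.5 relative to E14.5, 6 probes of 4 genes were lower and 0 higher, where 1.34% of all kept probes were lower and 1.85% higher. These were 3 Igf2bp1 probes (log2 differences -0.85 to -0.92, adjusted p from 0.000279 to 0.000631), Arid3a (1.62-fold, adjusted p = 0.00684), Igdcc3 (1.61-fold, adjusted p = 0.00468) and Arid3b (1.56-fold, adjusted p = 0.0225; limma). The last day, E16.5 relative to E15.5, brought log2 differences between -0.27 and 0.19 for the members, and over all kept probes 0 were lower and 1 was higher. Same-numbered arrays of these 2 stages deviated together (r of 0.19 to 0.33 between their deviations from the stage means), and with the replicate number as a block 0 were lower and 1 was higher as well. The first day, E12.5 relative to E11.5, ran from -1.30 ± 0.14 for Trim71 to 0.47 ± 0.14 for the Lin28a probe ILMN_2521653 (SE), and both days are described without a test because they use the end stages.

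The curvature of the course over 6 stages is described only, since the fit weights E11.5 and E16.5 most and the members were chosen on those stages. By the call rule of the other comparisons the course was convex, steeper early than late, for 5 of 16 member probes and concave for 0, where 1.76% of all kept probes were convex and 2.3% concave, and nothing is read from this count. The quadratic coefficients were 0.997 ± 0.10 for Trim71 and 0.83 ± 0.10 for Igdcc3 (SE), both of which ended at background, where a probe can read no lower. They were 0.46 ± 0.10 for Arid3b and 0.38 ± 0.10 for Arid3a, and between -0.00 and 0.25 for the 4 kept Igf2bp1 probes. By E13.5 the brightest Igf2bp1 probe had covered 60.7% of its end-stage difference, Arid3a 57.3%, Arid3b 64.9% and Igdcc3 75.5%.

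On their brightest probes, the courses of the 6 falling genes ran in parallel, while the other Igf2bp3 probes did not all move alike. Over the 18 arrays, Pearson's r between their brightest probes ran from 0.776 (Igf2bp3 with Arid3a) to 0.974 (Arid3a with Arid3b, and Arid3b with Igdcc3), whereas Lin28a and Lin28b had r of -0.31 to 0.28 with them. The arrays share stage and include the end stages on which the members were chosen. High r between the falling genes thus follows in part from that choice and is only a description. After the stage means were taken off, r was 0.79 for Igf2bp1 with Igf2bp3 and 0.56 for Arid3a with Arid3b, and between -0.24 and 0.29 for the other pairs of the 6.

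Outside the group, the genes whose courses were most alike over the 18 arrays were searched among 12390 genes with 1 probe each. For Igf2bp1 they were Mybphl (r = 0.984), Lgi2 (r = 0.984) and Akap5 (r = 0.980). For Igf2bp3 they were G3bp2 (r = 0.968), which encodes a stress granule protein, Mbd4 and Psmd4 (both 0.967). Arid3a was most like Pcsk6 (r = 0.971), a proprotein convertase gene, Wdr93 (0.964) and Capn6 (0.960). Arid3b was most like the long noncoding RNA Kcnq1ot1 and Hs6st2, a heparan sulfate sulfotransferase gene (both r = 0.977), and Rassf5 (0.967). Igdcc3 shared Lgi2 (r = 0.972), Hs6st2 (0.969) and Wdr93 (0.967) with these lists. Trim71 was most like Sall4 (r = 0.962), a zinc finger gene of stem cells, Gldc and Trim54 (both 0.957).

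Promoter sequence is described for the genes of the group. RefSeq (GRCm38.p6) gave 9 promoters of 300 bases for 8 of the 10 genes, with none for Igf2bp1 and Arid3a. Of these 8 genes, Lin28a, Lin28b and Hmga2 lay at or near background and Igf2bp2 had no probe. The counts below are therefore not those of the falling genes. The E-box CACGTG stood in 2 of the 9, those of Igf2bp3 and Lin28b, and in 7.15% of 32851 promoters of the same length. On both strands, the GC box GGGCGG was found in 6 of 9, against 35.7% of all, the CCAAT box in 4 of 9, against 37.4%, and TATAAA in 0 of 9, against 13.6%. The promoter of Igdcc3 was 73.3% G and C, against a median of 52.7% over all promoters. Those of Igf2bp3, with 2 CACGTG and 1 CCAAT in capitals, and of Igdcc3, with 3 GGGCGG in capitals, show the 2 layouts. A match describes these letters and is no evidence of binding.
Igf2bp3 promoter (chr6:49214905-49215204, minus strand): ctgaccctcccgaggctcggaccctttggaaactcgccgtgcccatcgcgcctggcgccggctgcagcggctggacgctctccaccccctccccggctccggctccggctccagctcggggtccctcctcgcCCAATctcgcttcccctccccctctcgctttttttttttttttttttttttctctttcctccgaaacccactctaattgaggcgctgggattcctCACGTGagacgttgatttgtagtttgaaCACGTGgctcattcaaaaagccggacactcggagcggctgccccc
Igdcc3 promoter (chr9:65140904-65141203, plus strand): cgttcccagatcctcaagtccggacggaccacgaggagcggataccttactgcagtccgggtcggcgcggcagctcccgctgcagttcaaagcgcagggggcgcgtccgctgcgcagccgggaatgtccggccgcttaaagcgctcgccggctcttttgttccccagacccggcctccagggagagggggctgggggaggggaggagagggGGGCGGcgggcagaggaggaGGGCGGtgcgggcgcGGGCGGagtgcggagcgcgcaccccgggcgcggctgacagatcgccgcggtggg

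Other known targets of let-7 were lower in part, and some were higher. Of 40 listed targets outside the 10 genes, 35 had a named probe and 30 were kept. Between E16.5 and E11.5, 8 of the 30 were lower, 3 were higher and 19 were not called, with a median log2 difference of -0.10 against -0.02 over all kept probes (10.4% lower and 8.94% higher over all). The largest changes were in Prtg, which encodes a protein related to Igdcc3 (not above background at E16.5, at least 1.38-fold lower on uncorrected intensities and 2.24-fold after background correction, adjusted p = 6.25e-08), Ccnd2, the cyclin D2 gene (2.09-fold lower, adjusted p = 9.6e-07), Dicer1, the RNase that cuts microRNA precursors (1.90-fold lower, adjusted p = 3.87e-05), and the insulin receptor gene Insr (1.93-fold higher, adjusted p = 1.52e-05; limma). Ccnd2 had a mean log2 level of 10.01 ± 0.10 at E16.5 and 11.07 ± 0.19 at E11.5, and Insr 9.90 ± 0.14 at E16.5 and 8.95 ± 0.07 at E11.5 (SD, n = 3). With the mean over a gene's probes in place of the brightest, Insr missed the threshold (adjusted p = 0.0581). In the middle stages, E15.5 relative to E12.5, 8 of the 30 were lower and 0 higher, where 4.13% were lower and 4.8% higher over all. The insulin-like growth factor receptor gene Igf1r was among these 8 (log2 difference -0.44, adjusted p = 0.033), while between E16.5 and E11.5 it was not called (log2 difference -0.03, adjusted p = 0.91; limma). Myc was above background on no array of either end stage and Cdk6 on none of E11.5, so that neither could be followed.

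For genes that make, use or degrade microRNAs, most were not called. Dicer1 is left out here, since it was counted above with the let-7 targets (1.90-fold lower). Of 30 listed, all had a named probe and 28 were kept, of which 5 were lower at E16.5 than at E11.5, 1 was higher and 22 were not called, with a median log2 difference of -0.02, where 10.4% of all kept probes were lower and 8.94% higher. The lower ones were led by Tarbp2, a partner of Dicer (1.62-fold lower, adjusted p = 6.22e-05), Hnrnpa1, an RNA-binding protein gene (1.58-fold, adjusted p = 0.000639), Drosha, which cuts primary transcripts (1.45-fold, adjusted p = 0.0045), and Tut1, a uridylyl transferase gene (1.38-fold, adjusted p = 0.0162; limma). Without E11.5 replicate 1 or without E16.5 replicate 3 the number lower was 3, and Tut1 was not called in either case (adjusted p = 0.081 and 0.105). With the mean over its probes Hnrnpa1 missed the threshold (adjusted p = 0.0525). Tut7, whose protein adds uridine tails to LIN28-bound let-7 precursors, and Dis3l2, whose product degrades the tailed precursors, were not called, with log2 differences of 0.32 and 0.03 (adjusted p = 0.0915 and 0.896). Tut4, which acts with Tut7, was above background on 0 arrays at E16.5 and 2 at E11.5 and could not be followed. Of the host transcripts of let-7 genes, looked up after the array's symbols had been read, Mir100hg was above background on no array. The kept probe of Mir99ahg read 106, 107 and 121 at E16.5, against 115, 111 and 119 at E11.5, and was not called (log2 difference -0.15 ± 0.15, adjusted p = 0.585).

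**Figure D5:**
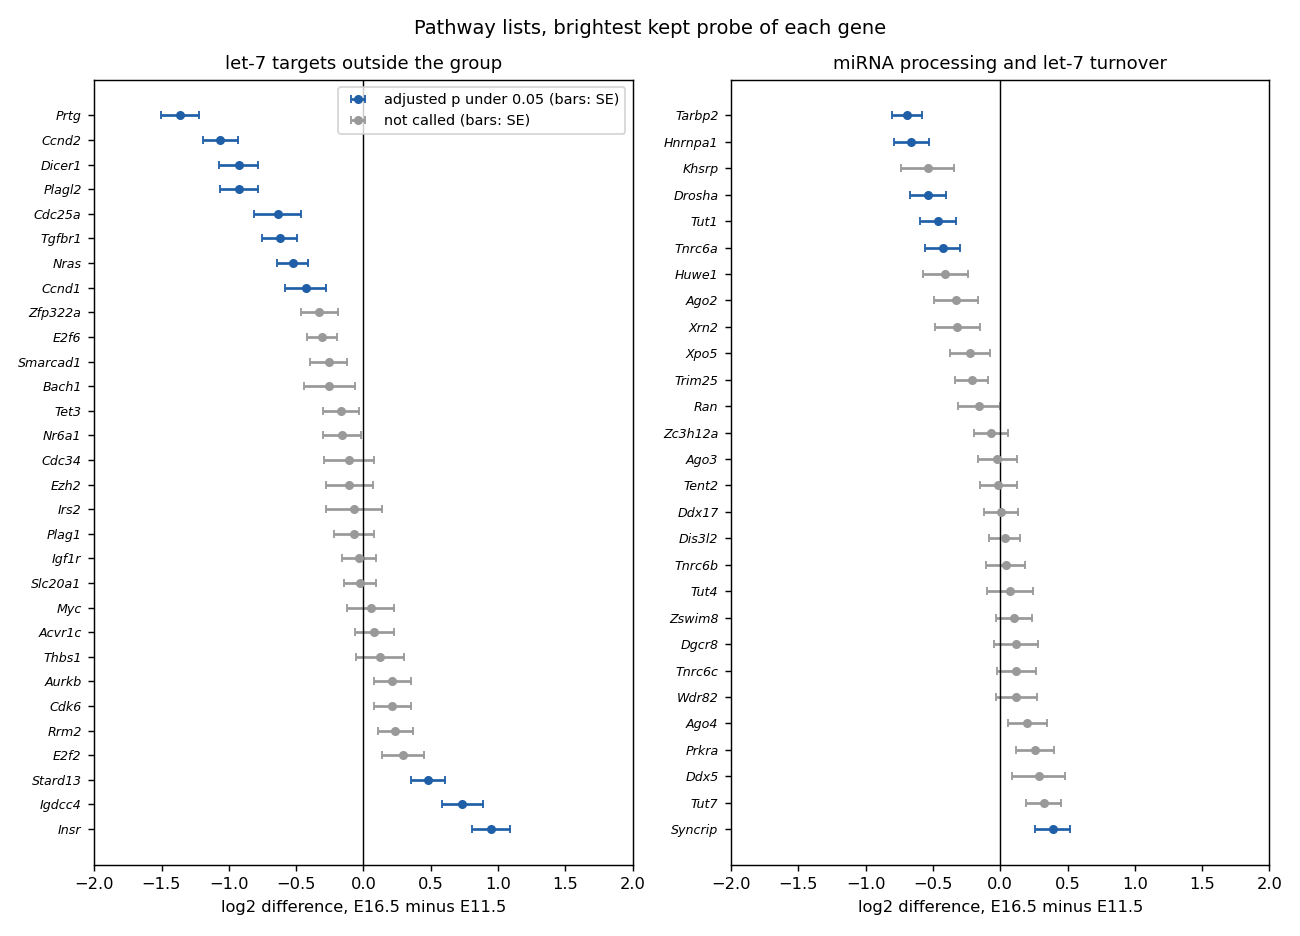
Log2 difference between E16.5 and E11.5 (horizontal axis) for the 30 kept let-7 targets outside the group (left) and the 28 kept genes of microRNA processing and let-7 turnover (right), brightest kept probe of each gene, with bars for the SE, in blue where the adjusted p was under 0.05 (limma, 18 arrays). On the left 8 genes lie lower and 3 higher, and on the right 5 lower and 1 higher, with most of both lists near 0.

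Among 6 kept mRNAs known to be bound by IGF2BP proteins, 2 were lower and 0 higher at E16.5 than at E11.5, where 10.4% of all kept probes were lower and 8.94% higher. These were Cd44, a hyaluronan receptor gene (2.26-fold lower, adjusted p = 1.05e-05), and Btrc, a ubiquitin ligase subunit gene (1.71-fold lower, adjusted p = 3.84e-05; limma). Each gene was read on its brightest kept probe. Actb was not called on that probe (log2 difference -0.13, adjusted p = 0.774, limma), but 3 of its 4 other kept probes were called higher. Igf2, after which the proteins are named, had a log2 difference of 0.02 (adjusted p = 0.92, limma). Its log2 means, 13.82 at E16.5 and 13.80 at E11.5, were close to the highest intensities of the arrays. Whether the probe was saturated was not tested. Of 16 kept relatives of the 10 genes by protein family, 4 were lower and 1 higher, against the same 10.4% and 8.94% over all. They included Prtg again, Hmgn1 (1.62-fold lower, adjusted p = 0.000197) and Arid1a (1.54-fold lower, adjusted p = 0.00388), while Igdcc4, the neighbour in family of Igdcc3, was 1.66-fold higher (adjusted p = 0.00092; limma).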

How the data were processed

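Total RNA of sorted cells was labelled with biotin and hybridized to Illumina mouse arrays, 18 arrays of 6 stages with 3 each, per the labels. The deposited series matrix held linear intensities (83.8 to 17358), summarised in GenomeStudio 2011.1, per the submitters' processing notes. The authors' deposited intensities shared 1 distribution between arrays (sorted values spread by at most 0.0873%), as after quantile normalization. A further deposited table, not normalized, was not used: its 36 columns matched no sample. Depth has no meaning here, and the number of arrays limits the precision.

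From the deposited intensities, log2 values were computed after normexp background correction (offset 16) with limma 3.58.1 in R 4.3.3. Stage means were fitted with lmFit and eBayes, with Benjamini-Hochberg adjustment over the 25357 kept probes and a threshold of 0.05. Comparisons between E12.5 and E15.5 used 12 arrays, all others 18. Bounds count a dim stage, array by array, at the lowest signal of probes above background or the probe's own, with and without background correction. Of the probes, 34885 had 1 gene symbol in the platform annotation, 18 several and 10378 none. For gene lists, the kept probe with the highest mean stood for a gene, and up to 4 called genes with the largest differences between E16.5 and E11.5 were named. The fit was tested on simulated data. The members, lists and tests were chosen with earlier results of these data known. Alternatives changed the background correction, normalization, filter, array weights, probe choice, arrays and replicate numbers as a block.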

Additional observations from a re-analysis of the deposited data

How the results depend on the processing

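No result changed sign with its call. Of 1274 single results with a test under an alternative, 1160 kept direction and call, 76 lost the call and 3 gained one. Of the losses, 46 concerned E13.5 against E12.5. The remaining 35 changed sign without a call on either side. Brightness near background sets the size of the differences: the median log2 difference of all 25 member probes between E16.5 and E11.5 was -0.33, but -0.15 with a normexp offset of 50 and -0.089 without background correction, and -0.39 to -0.30 with single arrays left out. Member probes lower at E13.5 than at E12.5 numbered 10, 4 to 9 with single arrays left out, and 2 with E13.5 replicates 2 and 3 left out; with no probe filter they were 7. At E14.5 against E13.5, 0 to 1 were lower and 0 to 1 higher with single arrays left out, and 1 was higher with array weights. Convex member probes numbered 5, and 3 to 5 with single arrays left out. Member probes lower at E15.5 numbered 9 to 11 against E12.5 and 4 to 7 against E14.5 with single arrays left out. The causes were not tested.

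Between E16.5 and E11.5, 1 gene of microRNA processing was higher, and 2 were with a normexp offset of 50, without background correction or with cyclic loess. That number was 0 without a filter and with averaged probes per gene, and 0 to 2 with single arrays left out. The number lower was 5, and 3 to 6 with single arrays left out. For the other let-7 targets it was 6 to 9 lower and 2 to 4 higher. In the comparisons tested, the replicate numbers of the labels were not taken as pairs, since the correlations of same-numbered deviations ran from -0.01 to 0.17 and were under 0.1 in 8 of 15. At E16.5 against E15.5, where no member is tested, they were 0.28, 0.19 and 0.33, so the numbers did pair there; with the block, chosen after seeing the data, 0 probes of all kept were lower and 1 was higher, and 2 were higher in a fit of these 6 arrays alone. With a replicate block, 10 member probes were lower at E15.5 than at E12.5, as without it, and no call on a member probe or named gene was lost. The number of arrays, 3 a stage, limits all of these, and Lin28a, Lin28b and Hmga2 lay too close to background for a change to be read.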

Other observations

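Of 10 kept genes of a pluripotency list, 2 were lower at E16.5 than at E11.5, where 10.4% of all kept probes were lower and 8.94% higher. Sall4, a zinc finger gene of stem cells, was 4.26-fold lower (log2 mean 5.77 ± 0.24 at E16.5 and 7.86 ± 0.23 at E11.5, SD, n = 3; adjusted p = 3.61e-11, limma). It was lower at E15.5 than at E12.5 as well (log2 difference -1.09, adjusted p = 7.22e-06). The DNA methyltransferase gene Dnmt3b was 1.42-fold lower at E16.5 (adjusted p = 0.00374), and none of the 10 genes were higher. Pou5f1, Nanog and Sox2 lay at the background limit, which 1 or 2 arrays of either end stage passed, and could not be followed. At E15.5 against E12.5, 1 gene of the list, Sall4, was lower.

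Of 17 kept proliferation genes, 4 were lower and 1 was higher at E16.5 relative to E11.5. The replication helicase genes Mcm2 (1.53-fold lower, adjusted p = 0.000535) and Mcm5 (1.42-fold lower, adjusted p = 0.00424), and the centromere histone gene Cenpa (1.36-fold lower, adjusted p = 0.0111), were among those lower. Top2a, a topoisomerase gene of dividing cells, was 1.52-fold higher (adjusted p = 0.0154; limma). The shares over all kept probes are those given above.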
